A study of Sus scrofa with 3 samples.

Results

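The miRNAs described here are 7 mature microRNAs (miRNAs) of leucocytes in the pig: ssc-miR-142-3p, ssc-miR-142-5p, ssc-miR-150, ssc-miR-155-5p, ssc-miR-146a-5p, ssc-miR-146b and ssc-miR-342, where ssc stands for Sus scrofa and is left off in most places below. They were chosen by name, with earlier results of these data known. All 7 of them were found among the 405 miRNAs of the count files. They lay above the expression minimum that 208 miRNAs passed, a mean of at least 10 counts per 1000000 (CPM). The samples were livers of male pigs taken at postnatal day 90, from which small RNA was sequenced. One library came from the Enshi black pig, a domestic breed of China, another from the Large White pig, a commercial breed of European origin, and another from the Chinese wild boar. No treatment or genetic change is named for any of these animals. The protocols speak of 3 male pigs without saying how they fall among the libraries. With 1 library per breed there is no replicate check and no p-value, a difference between libraries includes any difference between individual animals, and every interval is an exact 95% interval, unless another is named, that covers counting error only.

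Mature miRNAs guide Argonaute proteins to partly complementary messenger RNAs and lower their output. A hairpin precursor can release a miRNA from its 5′ arm (5p) and from its 3′ arm (3p). miR-142 is restricted to blood-forming cells and their descendants, and both of its arms are functional. miR-150 is typical of mature lymphocytes and represses the transcription factor MYB. miR-155 is induced when lymphocytes and macrophages are activated. miR-146a and miR-146b share a seed, the stretch near the 5′ end that selects targets, are induced by NF-κB signalling and dampen it by repressing the adaptors TRAF6 and IRAK1. miR-342 is encoded in an intron of EVL, a regulator of actin, and is found in lymphoid and myeloid cells. In liver such miRNAs can come from Kupffer cells, other resident immune cells and blood. The files hold only miRNAs, so which cells gave these reads was not tested.

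In the RefSeq gene table of the pig assembly Sscrofa 11.1, MIR342 lay inside EVL. The other matched precursors lay inside no protein-coding gene. MIR142 stood between TSPOAP1 and SUPT4H1, MIR155 between NCAM2 and MRPL39, and MIR146A between ATP10B and PTTG1. MIR146B had CUEDC2 as a named coding neighbour. The authors' counts used another assembly, Sscrofa10.2, so no coordinates are given, and mir-150-2, the second precursor counted for miR-150, had no match in the table.

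The libraries held 7730934 reads for the Enshi black pig, 7343033 for the Large White pig and 7824836 for the wild boar after names that repeat other names' reads were left out. The hepatocyte miRNA miR-122 led each of them in abundance, at 34.2% to 41.4% of reads. Where 3 levels, shares or read numbers follow each other, they are for Enshi black, Large White, wild boar, always in this order. Levels below are CPM after scaling by trimmed mean of M-values (TMM), which assumes that most miRNAs do not differ, unless library totals are named. The choice moves all ratios of a pair of libraries together. Over the 208 miRNAs, the median log2 ratio was −0.04 for Enshi black over Large White, −0.02 for wild boar over Large White and −0.01 for Enshi black over wild boar after TMM, and 0.60, 0.46 and 0.15 on library totals.

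The wild boar library held far fewer reads of these leucocyte miRNAs than either domestic library. Together the 7 took 1.38% of the Enshi black reads (interval 1.37 to 1.39), 1.65% of the Large White reads (1.64 to 1.66) and 0.450% of those of the wild boar (0.445 to 0.455). Nearly all of that gap lay in miR-142. Without its arms, the other 5 summed to 1989, 1457 and 1305 CPM of the library total in the same order. After TMM scaling they summed to 1655, 1886 and 1212 CPM. Most of these reads were of miR-155-5p and miR-342, so the sum says little about the other members, which are given singly below. In bulk tissue, fewer cells of a type and less of a miRNA per cell cannot be told apart.

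The miRNA with the highest level was ssc-miR-142-3p, with 74824 Enshi black, 95697 Large White and 19777 wild boar reads. Its level was 8054 CPM (7997 to 8112), 16873 CPM (16766 to 16980) and 2346 CPM (2313 to 2379) in that order. By reads it ranked 19th of all miRNAs in the Enshi black, 11th in the Large White and 41st in the wild boar library. Its partner ssc-miR-142-5p stood at 1777 CPM (1750 to 1805), 2613 CPM (2571 to 2655) and 618 CPM (601 to 635). Both arms were thus highest in the Large White and lowest in the wild boar library after TMM scaling, while on library totals miR-142-5p was nearly level between the domestic libraries, at 2136 CPM in the Enshi black and 2018 CPM in the Large White.

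The lymphocyte miRNA ssc-miR-150 had 2917, 1577 and 767 reads in the 3 libraries, or 314 CPM (303 to 326), 278 CPM (264 to 292) and 91.0 CPM (84.7 to 97.6). These reads were divided equally between the precursors mir-150-1 and mir-150-2 in the deposited counts, so the data do not tell which precursor they came from. The wild boar library was low and the domestic libraries lay close together after TMM scaling, while on library totals they stood at 377 and 215 CPM.

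Of the NF-κB induced pair, ssc-miR-146a-5p stood at 169 CPM (161 to 178) in the Enshi black, 177 CPM (166 to 188) in the Large White and 68.8 CPM (63.3 to 74.6) in the wild boar library. The domestic values overlapped within counting error, though not on library totals at 203 and 137 CPM, and the wild boar value lay below both. ssc-miR-146b was highest in the Enshi black library, with 152 CPM (144 to 160) there, 61.7 CPM (55.4 to 68.5) in the Large White and 28.5 CPM (25.0 to 32.3) in the wild boar library. On library totals both names had the same order, with 183, 47.7 and 30.7 CPM for miR-146b. It rests on the fewest reads of the 7, with 1414, 350 and 240.

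The activation-linked ssc-miR-155-5p varied less. It had 5221, 4912 and 4446 reads, or 562 CPM (547 to 577) in the Enshi black, 866 CPM (842 to 891) in the Large White and 527 CPM (512 to 543) in the wild boar library. On library totals it was 675, 669 and 568 CPM, so which domestic library was higher depends on the scaling. ssc-miR-342 was the most even of the 7 after TMM scaling, with 4253, 2855 and 4181 reads, or 458 CPM (444 to 472), 503 CPM (485 to 522) and 496 CPM (481 to 511). Its highest level was then 1.10 times its lowest, a range that only 5 of the 208 miRNAs undercut. On library totals it was 1.41 times, and miR-155-5p was more even at 1.19 times.

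The order of read levels was the same in each library: miR-142-3p, miR-142-5p, miR-155-5p, miR-342, miR-150, miR-146a-5p and, lowest, miR-146b. The narrowest steps were those from miR-146a-5p to miR-146b in the Enshi black library and from miR-155-5p to miR-342 in the wild boar library, whose intervals did not overlap but nearly met. Mature miRNAs are of similar length, but adaptor ligation favours some sequences over others, so an order of reads need not be an order of molecules.

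**Figure D1:**
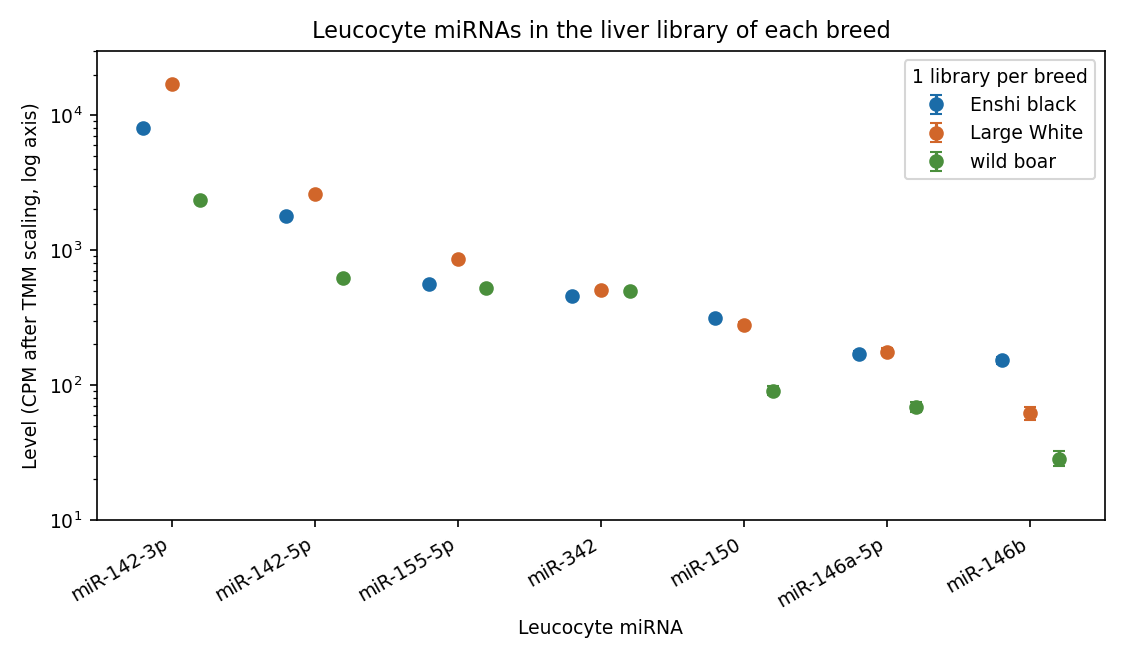
Level of each of the 7 leucocyte miRNAs in CPM after TMM scaling on a log axis, with 1 point per library and bars for the exact Poisson 95% interval, which are shorter than the points for most. For miR-146b, miR-146a-5p, miR-150 and both arms of miR-142 the wild boar point lies below both domestic points by more than 2-fold, while the points of miR-342 lie between 458 and 503 CPM.

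Between the wild boar and Large White libraries, 5 of the 7 were lower in the wild boar by at least 2-fold with an interval that left out 1, and none was higher. By the same rule 13.5% of the 208 miRNAs were lower and 11.5% higher. miR-142-3p stood higher in the Large White by 7.19-fold (interval 7.08 to 7.30), the lowest wild boar to Large White ratio of all 208 miRNAs. miR-142-5p differed by 4.23-fold (4.10 to 4.37) and had the 5th lowest ratio. These places in the ranking do not depend on the scaling.

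Further members lower in the wild boar were miR-150 by 3.06-fold (2.80 to 3.34), miR-146a-5p by 2.57-fold (2.32 to 2.85) and miR-146b by 2.17-fold (1.83 to 2.57). On library totals the last pair came under 2-fold, with log2 ratios of −0.88 and −0.64, and 3 of 7 stayed lower against 9.13% of all miRNAs. For miR-155-5p the Large White level was 1.64 times that of the wild boar (1.58 to 1.71), and the log2 ratio was −0.72, or −0.24 on library totals. miR-342 was level, with a log2 ratio of −0.02 that became 0.46 on library totals. It held the 104th place of 208 from the lowest ratio, next to the median of all miRNAs. Over the 7 members the median log2 ratio was −1.36 after TMM and −0.88 on library totals.

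The comparison of Enshi black with wild boar shares the wild boar library with the one above. Here 5 of 7 were higher in the Enshi black by at least 2-fold and 0 were lower, while 6.25% of the 208 miRNAs were higher and 6.25% lower by the rule. The highest ratio of all 208 belonged to miR-146b, at 5.35-fold (4.66 to 6.16). miR-150 followed at 3.45-fold (interval 3.19 to 3.74) in the 3rd place and miR-142-3p at 3.43-fold (interval 3.38 to 3.49) in the 4th. miR-142-5p at 2.88-fold (2.79 to 2.97) and miR-146a-5p at 2.46-fold (2.23 to 2.71) held the 7th and 10th places. By contrast miR-155-5p stood at 1.07-fold (1.02 to 1.11). miR-342 had a ratio of 0.923 (0.884 to 0.964), whose log2 value of −0.12 turned to 0.04 on library totals. The members' median was 1.52, or 1.68 on library totals.

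After TMM scaling the domestic libraries were the closest pair for both arms of miR-142, miR-150 and miR-146a-5p. For miR-146b, miR-155-5p and miR-342 another pair of libraries was closer. Of the 7, miR-142-3p stood higher in the Large White by 2.09-fold (2.07 to 2.11) and miR-146b in the Enshi black by 2.47-fold (2.19 to 2.78), against 10.1% of the 208 miRNAs lower and 2.88% higher in the Enshi black. miR-146b held the 3rd highest ratio of all 208 and stayed past 2-fold under each of the 4 scalings, among them library totals, where 27.4% of the 208 were higher. miR-142-3p came under 2-fold on library totals, at a log2 ratio of −0.43, and with DESeq2 size factors, at −0.99. The other 5 were under 2-fold, and 4 of them changed sign with the scaling. From TMM to library totals the log2 ratio went from −0.56 to 0.08 for miR-142-5p, from −0.62 to 0.01 for miR-155-5p, from −0.07 to 0.57 for miR-146a-5p and from −0.14 to 0.50 for miR-342. miR-150 stayed positive, at 0.18 and 0.81.

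**Figure D2:**
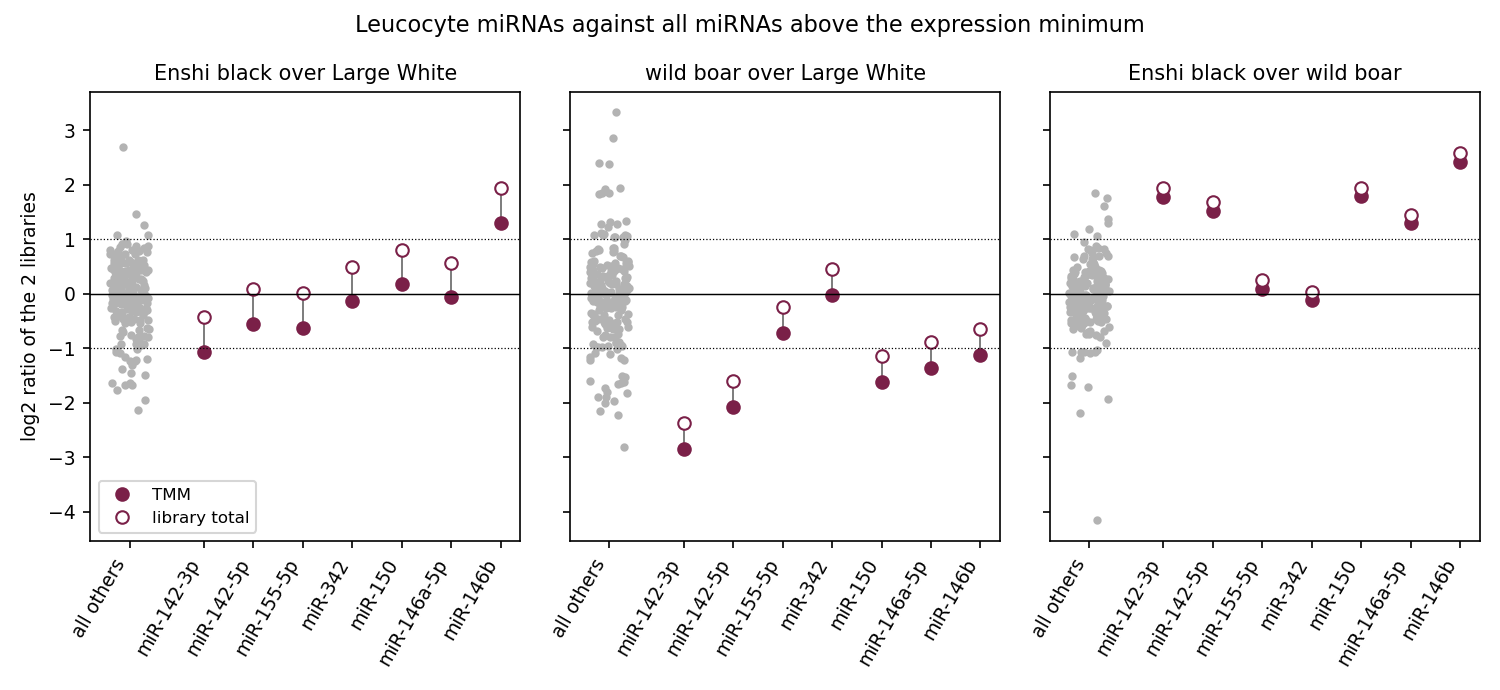
log2 ratio of the levels in 2 libraries for each leucocyte miRNA, after TMM scaling (filled) and on library totals (open), beside all other miRNAs above the expression minimum after TMM scaling (grey), with dotted lines at 2-fold. In wild boar over Large White miR-142-3p lies at −2.85, below every grey point, and in Enshi black over wild boar miR-146b lies at 2.42, above every grey point.

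Setting the members against each other removes the scaling, since both miRNAs come from the same library. The difference between members in their log2 ratio was computed for all 21 pairs of members with an approximate 95% (Woolf) interval. In wild boar over Large White it passed 2-fold for 10 of 21 pairs, in Enshi black over wild boar for 11 and in Enshi black over Large White for 8. Pairs of other miRNAs were not computed, so whether these counts are unusual was not tested. The widest split in wild boar over Large White was between miR-142-3p and miR-342, where the ratio of miR-142-3p was 7.09-fold (6.74 to 7.45) further down. Against miR-155-5p it was 4.38-fold (4.19 to 4.57) and against miR-150 2.35-fold (2.16 to 2.57).

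Enshi black over wild boar gave another picture for the lymphocyte miRNA. There miR-142-3p and miR-150 differed by a log2 value of −0.01 (−0.12 to 0.11), an interval that holds differences of up to 1.09-fold. miR-146b stood 5.79-fold (5.02 to 6.68) above miR-342 and 5.02-fold (4.35 to 5.79) above miR-155-5p. The pairs whose interval held 0 were this one, miR-146a-5p with miR-342 in Enshi black over Large White at 0.07 (−0.06 to 0.20), and miR-146a-5p with miR-146b in wild boar over Large White at −0.25 (−0.53 to 0.03).

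These splits changed the make-up of the leucocyte reads. miR-142-3p took 70.1% of the reads of the 7 in the Enshi black library (69.8 to 70.4), 78.9% in the Large White (78.7 to 79.2) and 56.2% in the wild boar (55.7 to 56.7). miR-155-5p took 4.89%, 4.05% and 12.6% in that order, and miR-342 3.99%, 2.36% and 11.9%. In levels after TMM scaling neither was higher in wild boar than in Large White, while on library totals miR-342 was, at 534 against 389 CPM. miR-150 took 2.73%, 1.30% and 2.18%, miR-146a-5p 1.47%, 0.828% and 1.65%, and miR-146b 1.33%, 0.289% and 0.682%. With miR-142-3p taken out of the total, miR-155-5p still held 28.8% in the wild boar library against 16.4% in the Enshi black and 19.3% in the Large White.

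The arms of miR-142 come from 1 precursor, so their ratio is also free of the scaling. The 3p arm made up 81.9% of the reads of both arms in the Enshi black library (81.7 to 82.2), 86.6% in the Large White (86.4 to 86.8) and 79.2% in the wild boar (78.6 to 79.7). There were 4.53, 6.46 and 3.80 reads of miR-142-3p for each read of miR-142-5p. The library with the most miR-142 thus had the highest 3p share and the one with the least had the lowest, over 3 libraries only. Reads of the 3p arm enter both the amount and the share, so this likeness is partly built in. The intervals did not overlap, and the 5p share ranged over 7.43 percentage points. Among 62 precursors whose arms together had 100 reads or more in every library, that was the 18th widest range, against a median of 2.66 points. Only precursors with a named 5p and a named 3p arm were used, and copies that share divided reads were counted apart.

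The other precursors with counted partner arms used 1 arm almost alone. miR-155-5p made up 99.9% of the reads of its precursor in each library, with 7, 3 and 4 reads of miR-155-3p. miR-146a-3p had 1 read in each domestic library and 0 in the wild boar library, where a set floor of 3 reads stands at 0.356 CPM. Within the seed-sharing pair, miR-146a-5p held 52.6% of the reads of both names in the Enshi black library (50.8 to 54.4), 74.2% in the Large White (71.7 to 76.5) and 70.7% in the wild boar (67.5 to 73.8). The pair was thus near even in the Enshi black library and leaned to miR-146a-5p in the other two. The deposited counts of both names end in a fraction of a read in the Large White and wild boar libraries, so at least 1 read in each of these libraries was divided between names by the authors' counting.

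**Figure D3:**
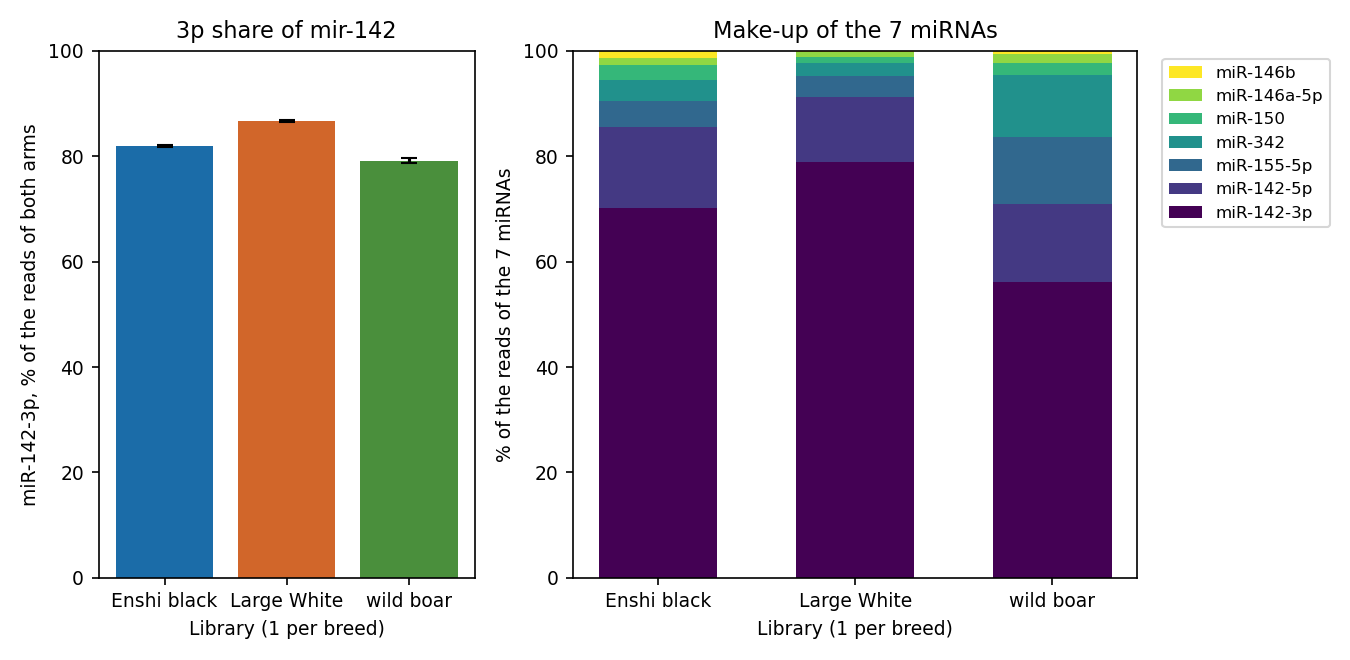
Left, miR-142-3p as a percent of the reads of both arms, by library, with Clopper-Pearson 95% intervals, at 81.9, 86.6 and 79.2. Right, percent of the reads of the 7 leucocyte miRNAs taken by each, where miR-142-3p takes 78.9 of the Large White and 56.2 of the wild boar reads.

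Of 15 further miRNAs listed for myeloid, inflammatory or lymphoid cells, 13 lay above the expression minimum and miR-132 lay below it. The remaining one, miR-223, was not among the 405 miRNAs counted, so it has no value here. In wild boar over Large White, 1 of 13 was at least 2-fold lower and 1 higher, beside 13.5% and 11.5% of all 208, with a median log2 ratio of 0.52 beside −1.36 for the 7 members and −0.02 for all 208. The lower one was miR-21, a broadly expressed miRNA induced in inflammation, at 39895, 55713 and 24792 CPM. Its log2 ratio was −1.17 after TMM and −0.69 on library totals. The higher one was miR-222, at 1505, 820 and 1646 CPM, with log2 ratios of 1.01 after TMM and 1.49 on library totals. The lymphoid miR-181a, at 8248, 5866 and 9328 CPM, and miR-92a, of the miR-17-92 cluster, at 5258, 4166 and 7451 CPM, were higher in wild boar than in Large White, but under 2-fold after TMM, and past it on library totals at 1.15 and 1.32. In Enshi black over wild boar 0 of the 13 passed the rule, beside 6.25% of all 208 in each direction, with a median of −0.01. In Enshi black over Large White 0 of the 13 passed it after TMM, beside 2.88% of all higher and 10.1% lower, with a median of 0.18. On library totals 5 of the 13 were higher in that pair, beside 27.4% of all. On the same scale wild boar over Large White had 6 of the 13 higher by the rule and none lower, beside 21.6% and 9.13% of all 208. Most miRNAs of this list are also made by cells that are not leucocytes.

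Markers of other cells in the tissue moved in their own ways between the libraries, and their part in the differences above was not tested. The 4 hepatocyte miRNAs summed to 341596, 657125 and 439702 CPM, with all 4 detected. The endothelial sum over miR-126-3p and miR-126-5p was 16284, 10080 and 12169 CPM. Stellate cell and smooth muscle miRNAs, 5 of 5 detected, summed to 49324, 38412 and 40349 CPM. Red cell miRNAs, 3 of 3 detected, summed to 4114, 5324 and 3114 CPM, the same order of libraries as miR-142 after TMM, over a range of 1.71-fold, while on library totals they were 4944, 4112 and 3356 CPM. The 3 striated muscle miRNAs summed to 228, 388 and 174 CPM, a range of 2.23-fold in the same order as miR-142, and kept the order of miR-142-3p on library totals, at 274.5, 299.7 and 187.2 CPM. miR-429, the 1 biliary miRNA with a row, stood at 10.4 to 13.7 CPM.

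The wild boar low of 5 members held against each of 4 marker miRNAs, but not against every listed marker. Against the red cell miR-144, with 6177, 8713 and 3486 reads, only the arms of miR-142 were lowest in the wild boar library. Against the striated muscle miR-1, with 526, 584 and 185 reads, only miR-142-3p was. In both cases the rest of the 5 were lowest in the Large White library. The comparison with marker miRNAs was added after the values were seen. Per 1000 reads of miR-122 there were 28.3, 31.5 and 6.40 reads of miR-142-3p. Per 1000 reads of the red cell miR-451 there were 2428, 4634 and 918. Against miR-122, the endothelial miR-126-3p, the smooth muscle miR-143-3p and miR-451, the wild boar library was the lowest of the 3 in 4 of 4 cases for both arms of miR-142, miR-146b, miR-146a-5p and miR-150. The Large White to wild boar ratio ran from 4.92 to 8.20 for miR-142-3p over these references. miR-155-5p was lowest in the wild boar library in 1 of 4 cases and miR-342 in 0 of 4. The difference between the domestic libraries depended more on the reference, at 0.299 to 0.899 for Enshi black over Large White in miR-142-3p.

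The miRNAs closest in pattern were sought by the root mean square difference of log2 CPM, each miRNA centred on its own mean over the 3 libraries, among 124 other miRNAs with a mean of at least 100 CPM. For miR-142-3p they were miR-140-5p at 0.37, miR-29b at 0.42 and miR-7 at 0.47, while its own partner arm lay at 0.32, miR-150 at 0.58 and miR-342 at 1.18. miR-140-5p, an abundant miRNA of cartilage, stood at 522, 900 and 230 CPM. For miR-150 the nearest were miR-151-3p at 0.38, miR-140-5p at 0.40 and miR-363 at 0.42, and miR-146a-5p was nearer than these at 0.20. For miR-146a-5p they were miR-151-3p at 0.19, miR-301 at 0.25 and miR-21 at 0.25. Here miR-151-3p was slightly nearer than the nearest member, miR-150 at 0.20. With 3 libraries this likeness is a description only.

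**Figure D4:**
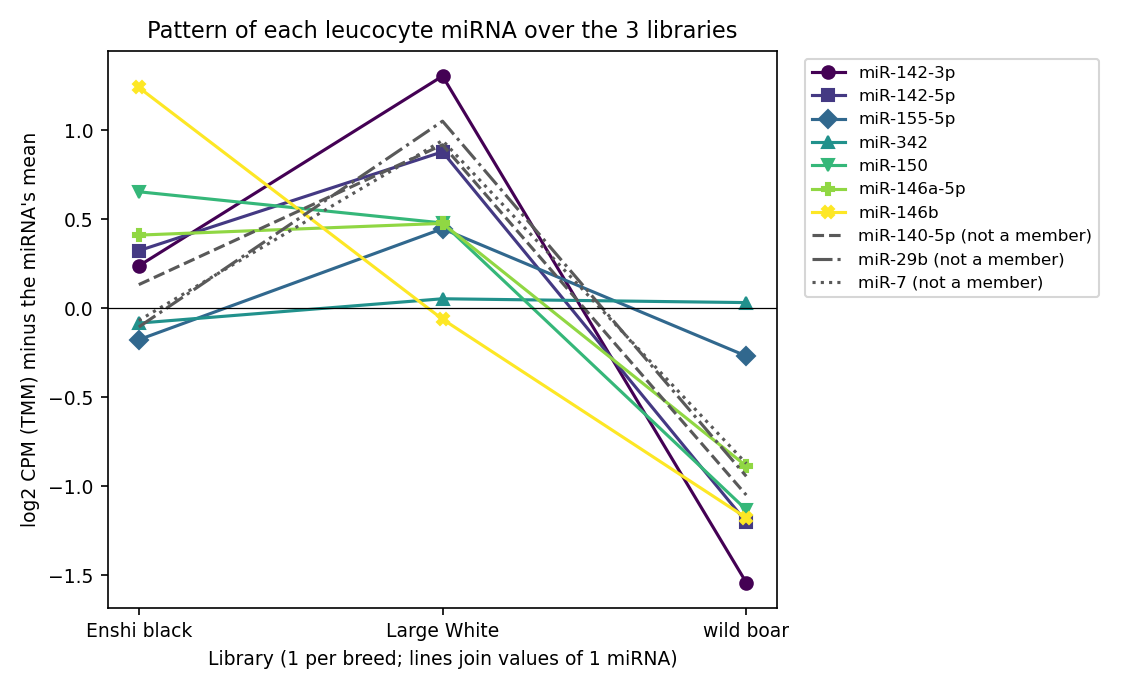
log2 CPM after TMM scaling minus the miRNA's own mean over the 3 libraries, for the 7 leucocyte miRNAs (solid) and the 3 other miRNAs nearest to miR-142-3p (grey, broken). miR-142-3p and miR-142-5p peak in the Large White library, miR-146b in the Enshi black library, 5 members drop in the wild boar library, and miR-342 is nearly flat.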

How the data were processed

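Per the labels' protocols, TRIzol was used to extract total RNA, and gel-selected small RNA of 14 to 40 nt was ligated, amplified and read as 50-base single ends. The submitters' processing notes name the build Sscrofa10.2. Which aligner, counter and annotation were used is not given in the sources used here. Files as deposited give an expected count for each pair of miRNA and precursor, with fractions where a read was divided. They also give RPM, which, as deposited, is the count over the library sum times 1000000.

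Counts were summed per miRNA over precursors, 6 names repeating other names' reads were left out, and the expected counts were rounded after summing. TMM factors came from edgeR 4.0.16 (R 4.3.3): 0.772 (Large White), 1.08 (wild boar) and 1.20 (Enshi black). The minimum of 10 mean CPM was taken on library totals. Ratios carry an exact conditional-binomial interval, levels a Poisson and shares a Clopper-Pearson interval. Past the rule means at least 2-fold with an interval leaving out 1. Named miRNAs are the 7 members, the listed leucocyte miRNAs past the rule in any pair or among the 3 most abundant, and the 3 nearest in pattern to miR-142-3p, miR-150 and miR-146a-5p. Members and lists were chosen with earlier results of these data known. Alternatives were library totals with and without miR-122, size factors of DESeq2 1.42.0, other minimums and a 4-fold threshold. Reads carry no molecular identifiers.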

Additional observations from a re-analysis of the deposited data

How the results depend on the processing

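No paired analysis was possible because each breed has 1 library, and for the same reason no library could be left out. Of the 21 log2 ratios of members (7 in each of 3 pairs of libraries), 15 kept their sign under all 4 scalings and 6 did not, none of these 6 being past 2-fold. Those 6 were the 4 named in Enshi black over Large White and miR-342 in the other pairs. In Enshi black over Large White, 2 members were at least 2-fold apart after TMM. The count was 1 on library totals, on totals without miR-122 and with DESeq2 size factors (miR-146b in each), 1 at a mean of at least 100 CPM, where miR-146b drops out, and 0 at 4-fold. In wild boar over Large White it was 5 after TMM, 3 on totals with or without miR-122, 4 at a mean of at least 100 CPM and 2 at 4-fold. In Enshi black over wild boar it was 5, with 4 at a mean of at least 100 CPM and 1 at 4-fold. Of all 208 miRNAs, totals without miR-122 put 37 higher and 8 lower in Enshi black over Large White. They put 43 higher and 19 lower in wild boar over Large White, and 13 and 12 in Enshi black over wild boar. With DESeq2 size factors these were 7 and 17, 25 and 27, and 13 and 13. At 4-fold and at 100 CPM the share over all miRNAs was not computed. Arm shares from the deposited RPM and the miR-146 share from whole reads stayed within their intervals, but neither is an independent check. RPM divides both arms by the same library sum, and taking whole reads drops only a fraction of a read. With miRNAs from 10 mean CPM admitted, the nearest to miR-142-3p became miR-1 at 0.26, miR-190a at 0.33 and miR-140-5p. miR-1 was then nearer than the partner arm miR-142-5p at 0.32. Those nearest to miR-150 became miR-1468 at 0.10, miR-20b at 0.22 and miR-708-5p at 0.33. Here miR-1468 was nearer to miR-150 than miR-146a-5p was, at 0.20. For miR-146a-5p the nearest became miR-151-3p at 0.19, miR-1468 at 0.21 and miR-20b at 0.24. Depth limits miR-146b most, with 240 reads in the wild boar library.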
